A study of Mus musculus with 20 samples.

Results

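The genes described here are 10 mucins and goblet cell genes of the mouse trachea: the mucins Muc5b, Muc1, Muc4, Muc16 and Muc20, the goblet cell products Clca1, Tff1 and Tff2, and Agr2 and Spdef, which act in the making of mucus. They were taken by name out of 27670 genes or unnamed transcripts on the array. They had 17 of the 41174 probes on the array, and 16 of the 26064 probes that were bright enough to be tested. Of the 17 probes, 14 carried a gene's own name, with Clca3 read as Clca1, and 3 were found only through an older name (both Muc16 probes and 1 further Muc4 probe).

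RNA of 20 whole tracheas was hybridized with a single dye to Agilent whole mouse genome arrays, 1 array per sample. The mice were C57/Bl6 wild-type or Myd88KO, given as 4 months old by the labels, and were either uninjured or collected 3 days after 2% polidocanol, a detergent that strips the tracheal epithelium. Each genotype gave 5 uninjured and 5 injured tracheas, prepared as biological replicates. The uninjured mice were controls, and the labels name no vehicle for them. Myd88 is the adaptor through which most Toll-like receptors and the interleukin-1 receptor family signal. The knockout was in all cells of the mouse and had been backcrossed to the C57/Bl6JOlaHsd strain, in which the wild-type mice were also kept. The knockout and wild-type mice were bred as separate colonies, so colony and genotype cannot be told apart in these samples.

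Mucus is a gel of very large glycoproteins that goblet cells and submucosal glands store in granules and release onto the airway surface. Gel-forming mucins such as Muc5b make the gel itself, whereas Muc1, Muc4, Muc16 and Muc20 stay anchored in the cell membrane. In goblet cells the ETS transcription factor Spdef drives the secretory programme, the endoplasmic reticulum protein Agr2 helps mucins to fold, and Clca1 and the trefoil peptides are released together with mucins.

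The promoters of 6 of the 10 genes were in the RefSeq table used here (build GRCm38.p6). Those of 4 are shown, because Muc4 and Muc20 are overlapping neighbours whose signals did not follow each other closely, and because Spdef and Agr2 are the regulator and the folding factor of the same secretory programme. Muc4 (chr16:32735636-32735935, plus strand) and Muc20 (chr16:32797386-32797685, minus strand) are transcribed towards each other, and the 2 genes share 4973 bases. The other promoters lie at chr17:27728902-27729201 on the minus strand (Spdef) and at chr12:35992675-35992974 on the plus strand (Agr2). Each sequence runs 5′ to 3′ from 250 bases before the start site to 50 bases after it, and capitals mark a match to a motif.
Muc4: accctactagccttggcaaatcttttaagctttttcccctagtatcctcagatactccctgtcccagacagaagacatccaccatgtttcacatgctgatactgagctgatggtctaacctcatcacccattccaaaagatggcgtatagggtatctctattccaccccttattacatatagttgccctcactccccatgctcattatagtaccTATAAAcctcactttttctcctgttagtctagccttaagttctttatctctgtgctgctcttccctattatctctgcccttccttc
Muc20: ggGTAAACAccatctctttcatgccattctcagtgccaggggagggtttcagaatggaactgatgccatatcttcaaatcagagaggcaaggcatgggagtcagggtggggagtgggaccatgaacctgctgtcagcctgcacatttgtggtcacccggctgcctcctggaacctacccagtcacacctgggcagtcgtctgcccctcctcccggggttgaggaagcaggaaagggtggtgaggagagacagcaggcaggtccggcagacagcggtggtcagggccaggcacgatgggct
Spdef: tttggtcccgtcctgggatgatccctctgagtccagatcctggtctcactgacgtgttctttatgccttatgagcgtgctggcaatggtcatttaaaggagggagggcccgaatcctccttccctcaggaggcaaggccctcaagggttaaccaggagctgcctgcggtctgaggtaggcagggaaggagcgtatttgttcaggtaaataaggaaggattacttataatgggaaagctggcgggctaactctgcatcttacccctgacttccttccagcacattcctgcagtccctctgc
Agr2: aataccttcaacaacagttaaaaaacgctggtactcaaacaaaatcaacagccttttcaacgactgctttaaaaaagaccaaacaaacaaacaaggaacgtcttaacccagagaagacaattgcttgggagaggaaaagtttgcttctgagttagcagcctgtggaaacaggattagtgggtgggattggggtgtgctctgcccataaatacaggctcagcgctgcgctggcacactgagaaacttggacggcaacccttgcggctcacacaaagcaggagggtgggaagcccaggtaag

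4 motifs were searched on both strands of these windows: TATAAA, the forkhead motif TGTTTAC, the STAT6 motif (TTC and GAA with 4 bases between them) and the NF-kB consensus. The Muc4 window held TATAAA from base 215 to base 220, and the Muc1 window (chr3:89228806-89229105, plus strand) held it from base 220 to base 225. TATAAA stood in 13.6% of all 32841 promoter windows. The Muc20 window held the forkhead motif, on the strand opposite to that shown, from base 3 to base 9, as did 3.65% of all windows. The Muc16 window (chr9:18674554-18674853, minus strand) held the NF-kB consensus after the start site, from base 275 to base 284, as did 8.46% of all windows. No window of these genes held the STAT6 motif, which stood in 6.95% of all windows, and the Spdef and Agr2 windows held no match at all. A match is a description of letters and does not show a binding site.

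Signals are given as log2 intensity relative to the 75th percentile of the same array, so a value of 0 is a probe at that percentile. Since probes differ in brightness, levels are compared between groups for 1 probe and never between probes. On each array 57.5% to 67.8% of the spots were well above background. Precision is limited by how many arrays there were. The single Myd88 probe read 1.94 to 2.28 in uninjured wild-type, 1.60 to 2.04 in uninjured Myd88KO, 2.36 to 2.80 in injured wild-type and 1.54 to 2.09 in injured Myd88KO tracheas. Whether it lies in the deleted part is not given in the sources used here, so it does not check the labels. Several arrays stood apart from their groups in 1 measure or another. Each array was scored on the 1372 probes called for injury in wild-type, as the slope of its differences from uninjured tracheas of its genotype against the mean difference that injury made in wild-type, with the array itself left out of the means. The score was 0.85 to 1.14 on the injured wild-type arrays and 0.34, 0.97, 0.50 and 0.97 on injured Myd88KO replicates 1 to 4. The probes were chosen with all arrays in the fit, which in itself draws the injured wild-type scores towards 1. Injured Myd88KO replicate 5 scored -0.027, within the -0.073 to 0.10 of uninjured Myd88KO tracheas, and replicate 1 of that group had the lowest weight of all arrays when arrays were weighted by their spread (0.310, with replicate 5 at 0.313). Uninjured wild-type replicate 1 had a summed log2 level of neutrophil and macrophage markers of 5.16, where the rest of its group had 2.27 to 3.31. Uninjured wild-type replicate 3 had a summed log2 level of the squamous keratins Krt4, Krt13 and Krt6a of 8.28, where the other 4 uninjured wild-type arrays had 3.02 to 3.87 and the remaining 15 arrays 3.02 to 5.89. It also had the lowest value of its group for Clca1, Spdef, Agr2, Tff2 and the brighter Muc16 probe, and the part of squamous tissue in these values was not tested. Without it the uninjured Myd88KO minus wild-type difference went from 1.23 to 0.93 for Clca1, from 0.60 to 0.48 for Spdef, from 0.55 to 0.38 for Agr2 and from 0.76 to 0.55 for Tff2, with none called either way. Many of the uncalled differences moved by over 1.5 times on leaving out single arrays, and ranges over the 20 arrays left out in turn are given with the main ones.

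Among the 10 genes, Clca1 alone passed the test. It fell 10.1-fold after injury in wild-type tracheas and stood 18.5-fold higher in injured Myd88KO than in injured wild-type tracheas. A probe was called where its limma p value, adjusted by Benjamini-Hochberg over all tested probes, was below 0.01. For injury in wild-type, 1 of these 16 probes was called, where 5.26% of all probes were, and for injury in Myd88KO 0 of 16, where 0.376% of all probes were. Between the genotypes 0 of 16 were called in uninjured tracheas (0.384% of all probes) and 1 of 16 in injured tracheas (0.38% of all probes). The difference between the injury responses was called for 0 of 16 probes (0% of all probes). Without adjustment, p was below 0.05 for 4, 5, 7, 3 and 1 of the 16 probes in these comparisons in the order given. The same share over all probes was 26.4%, 19.5%, 5.59%, 12.5% and 10.4%. The 5 for injury in Myd88KO were all tested probes of Muc4, so they stand for 1 gene of 10. The 7 in uninjured tracheas were 4 probes of Muc4 and the single probes of Spdef, Agr2 and Tff2, so they stand for 4 genes.

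Groups without any overlap were as rare among these probes. They did not overlap for 1 of the 16 after injury in wild-type (12.6% of all probes), for 0 after injury in Myd88KO (3.45%), for 0 between the uninjured genotypes (2.51%) and for 1 between the injured genotypes (1.96%). Both times the probe was that of Clca1. Over the brightest probe of each gene, the median log2 difference was -0.14 for injury in wild-type and -0.35 for injury in Myd88KO, against medians over all probes of 7.9e-05 and -0.069. For Myd88KO against wild-type it was 0.48 in uninjured and 0.34 in injured tracheas, against 0.036 and -0.034 over all probes. In each of these genotype comparisons 7 of the 10 genes and 8 of the 16 probes lay above 0, where 56.7% of all probes did so in uninjured and 45.3% in injured tracheas.

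**Figure D1:**
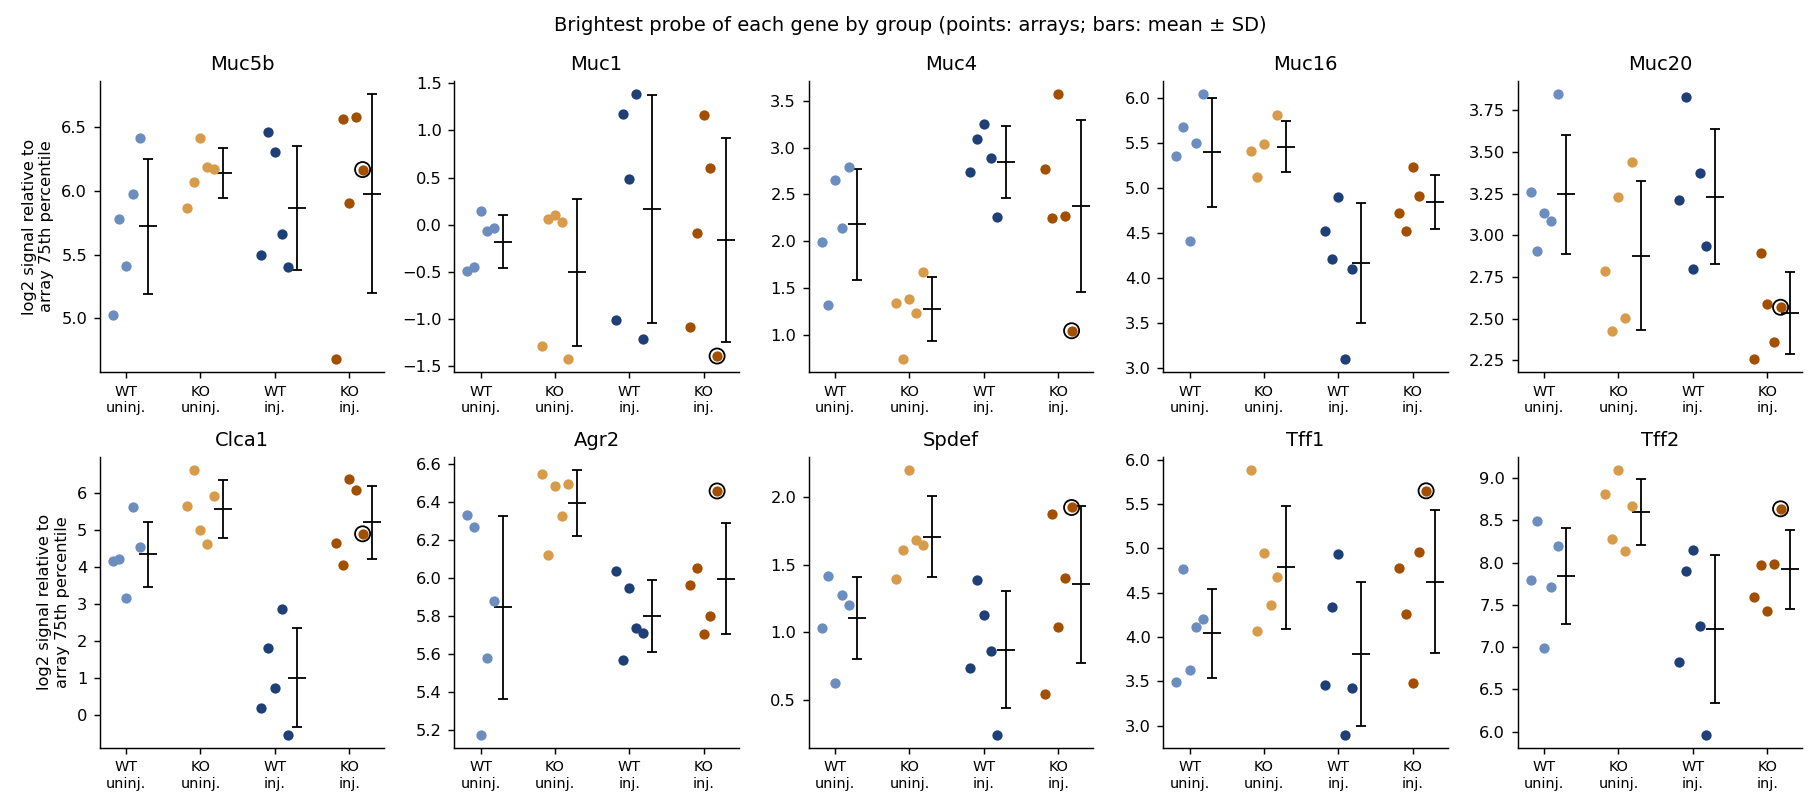
Log2 signal relative to the array's 75th percentile (vertical axis, scaled for each gene) for the brightest probe of each gene in uninjured (uninj.) and injured (inj.) wild-type (WT) and Myd88KO (KO) tracheas. Points are arrays, bars are the mean and SD, and the open circle is injured Myd88KO replicate 5; the panels show that only Clca1 had a group, injured wild-type, clear of the others.

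Clca1 is a secreted protein of goblet cell granules that raises chloride flow through the channel Ano1. Its probe, written Clca3 on the array and matched to Clca1 by its transcript accession, lies at positions 144897653 to 144897712 of chromosome 3 as the file gives them, with no build stated. In uninjured wild-type tracheas it read 4.16, 4.21, 3.17, 5.62 and 4.55 on replicates 1 to 5. In injured wild-type tracheas it read 0.17, 1.81, 0.74, 2.85 and -0.54. All 5 injured wild-type tracheas were below all 5 uninjured ones.

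In uninjured Myd88KO tracheas Clca1 read 5.64, 6.63, 5.00, 4.63 and 5.93. In injured Myd88KO tracheas it read 4.65, 4.05, 6.39, 6.08 and 4.90. These groups overlapped almost fully, and all 5 injured Myd88KO tracheas were above all 5 injured wild-type ones.

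The fall of Clca1 after injury in wild-type was -3.34 on the log2 scale (SE 0.59, 95% CI -4.58 to -2.09, adjusted p = 0.0016 by limma). An exact two-sided permutation test on the same arrays gave p = 0.00794, the smallest that 5 against 5 allows. In Myd88KO tracheas the change was -0.36 (95% CI -1.60 to 0.89, adjusted p = 0.791), and -0.65 to -0.063 as each array was left out. Injured Myd88KO tracheas exceeded injured wild-type ones by 4.21 (SE 0.59, 95% CI 2.96 to 5.45, adjusted p = 0.000484 by limma, exact permutation p = 0.00794). Without injured Myd88KO replicate 5 this difference was 4.28 (adjusted p = 0.0014 by limma), and without uninjured wild-type replicate 3 the change after injury in wild-type was -3.63 (adjusted p = 0.0016). Uninjured Myd88KO tracheas were 1.23 above uninjured wild-type ones, which did not pass (95% CI -0.018 to 2.47, adjusted p = 0.909).

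The injury responses of the 2 genotypes differed for Clca1 by 2.98 (SE 0.84, 95% CI 1.22 to 4.74), with an unadjusted p of 0.0021 but an adjusted p of 0.391 by limma. With injured Myd88KO replicate 5 left out it was 3.06 (adjusted p = 0.393). So Clca1 is called for injury in wild-type only, while the difference between the genotypes' responses did not pass over all probes. The 5 slides each held 1 array of every group, which gives 1 difference per slide. Within slides Clca1 was lower after injury in wild-type on 5 of 5 slides (differences of -5.08 to -2.40) and higher in injured Myd88KO than in injured wild-type on 5 of 5, by 2.23 to 5.66. In Myd88KO it was lower after injury on 3 slides and higher on 2. By scan day, the wild-type change was -2.54 on the first day (3 slides) and -4.54 on the second (2 slides), and the difference between injured genotypes was 3.71 and 4.95.

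2 alternatives ended a call of Clca1. With the methods' one-way test on the 2 groups compared, the adjusted p was 0.0228 for injury in wild-type and 0.139 between the injured genotypes. With limma on the 2 injured groups alone, the latter was 0.0221.

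**Figure D2:**
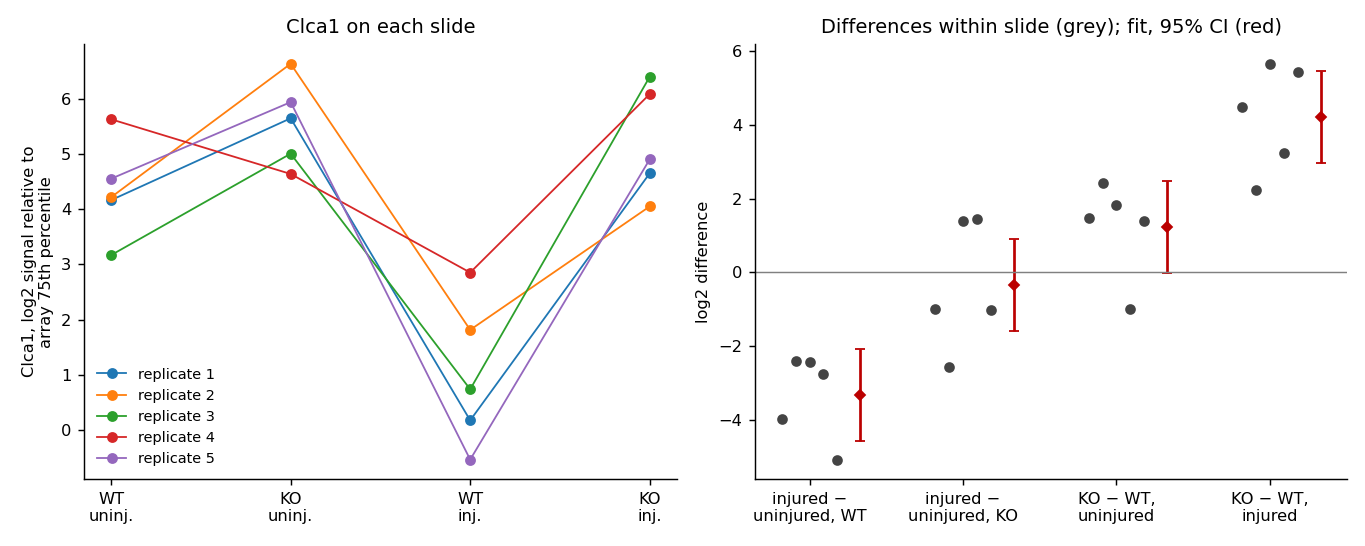
Left, Clca1 log2 signal relative to the array's 75th percentile in the 4 groups, with the arrays of 1 slide joined by a line; right, log2 differences within each slide (dark points) beside the limma estimate with its 95% CI (diamonds). The points for injury in wild-type all lie below 0 and those for Myd88KO against wild-type after injury all lie above 2.

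In whole trachea, fewer cells of a type and less RNA per cell cannot be told apart. Markers of other cells also differed after injury in wild-type. Of the 4 club cell markers, 2 were called lower after injury in wild-type (Scgb1a1 and Scgb3a2). Their summed log2 level over all 4 markers was 10.2 to 11.1 in uninjured wild-type, 9.31 to 9.57 in injured wild-type, 10.3 to 11.01 in uninjured Myd88KO and 9.11 to 10.6 in injured Myd88KO tracheas. Of the 4 neutrophil and macrophage markers, 2 were called higher after injury in wild-type (Cd68 and Adgre1). Their summed log2 level was 2.27 to 5.16 in uninjured wild-type, 4.58 to 8.07 in injured wild-type, 0.95 to 2.54 in uninjured Myd88KO and 1.01 to 5.69 in injured Myd88KO tracheas. Of the 4 ciliated cell markers, Dnah5 was called lower after injury in wild-type (log2 difference -3.94, adjusted p = 0.0032), and Dnaic1, at -1.52, did not pass (adjusted p = 0.0113) although its groups did not overlap. Their summed log2 level over all 4 markers was 4.05 to 5.39 in uninjured wild-type, 1.47 to 5.38 in injured wild-type, 4.60 to 4.97 in uninjured Myd88KO and 1.39 to 6.85 in injured Myd88KO tracheas. Between the injured genotypes 0 of these 12 markers were called (0.38% of all probes), and their adjusted p ranged from 0.139 to 0.978. All 4 neutrophil and macrophage markers were lower in injured Myd88KO (median log2 difference -2.65). Of the club and ciliated markers, 3 of 4 and 4 of 4 were higher (medians 1.29 and 0.64). Without adjustment, limma p was below 0.05 for 4, 2 and 1 of the 4 markers in these lists (12.5% of all probes). Of the 6 gland markers, Bpifa1 was called lower after injury in both genotypes, and Lpo, a peroxidase of gland secretions, was 2.89 lower in injured Myd88KO than in injured wild-type tracheas (adjusted p = 0.0022). In uninjured tracheas Lpo read -0.39 to 1.41 in Myd88KO and 1.72 to 3.18 in wild-type, a difference of -2.09 that was not called (adjusted p = 0.0478). The summed log2 level of the gland markers was 10.1 to 10.8 in both uninjured groups, 9.11 to 9.98 in injured wild-type and 9.46 to 10.03 in injured Myd88KO tracheas. Of the 3 tested markers of type 2 inflammation, the chitinase-like gene Chil3 rose after injury by 4.68 in wild-type and 4.46 in Myd88KO (adjusted p = 0.0012 and 0.0083). Retnla had a difference of -1.74 for injury in wild-type and 1.72 between the injured genotypes, and neither was called (adjusted p = 0.0323 and 0.161). The summed log2 level of the type 2 list was 2.18 to 3.64 in uninjured wild-type, 2.63 to 6.16 in injured wild-type, 1.86 to 4.54 in uninjured Myd88KO and 3.73 to 6.73 in injured Myd88KO tracheas. The part of these cells in the Clca1 results was not tested.

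Of the called club cell markers, Scgb1a1 was called lower after injury in both genotypes (log2 difference -7.91 in wild-type and -6.24 in Myd88KO). Scgb3a2 was called in wild-type (-5.77) and not in Myd88KO (-3.37, adjusted p = 0.0326). In Myd88KO it read 8.59 to 9.43 in uninjured and 3.07 to 9.10 in injured tracheas. The difference between injury responses was called for 0 of the 12 club, ciliated, neutrophil and macrophage markers (lowest adjusted p = 0.423 by limma). It was called for 0 of all 26064 probes (lowest adjusted p = 0.179 by limma), so this count cannot show that the markers responded alike. Epithelial markers were present throughout, with a summed log2 level over 5 genes (Epcam, Cdh1, Krt8, Krt18 and Cldn7) of 7.18 to 8.37 across all arrays. Over the 20 arrays, the genes whose probes were most like Clca1 were Ano1 (Pearson r = 0.86), Cadps2 (0.82) and Isl1 (0.82). Such likeness includes the differences between groups that all probes of these arrays share.

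A different probe carries the name Clca1 on the array. Its accession belongs to Clca3a1, a neighbouring family member, so it was not counted here. It read -2.73 to -0.68 in injured wild-type and -1.83 to -0.32 in injured Myd88KO tracheas, and was called in 0 comparisons.

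Tff1 and Tff2 are trefoil peptides, small disulphide-looped proteins that are secreted with mucins and aid surface repair. The genes are neighbours on chromosome 17, 17112 bases apart. Tff2 read 7.80, 8.49, 6.99, 7.72 and 8.20 in uninjured wild-type and 8.81, 8.28, 9.10, 8.14 and 8.67 in uninjured Myd88KO tracheas. After injury it read 6.83, 7.90, 8.15, 7.25 and 5.97 in wild-type and 7.59, 7.97, 7.43, 7.98 and 8.64 in Myd88KO. All 4 comparisons of Tff2 had overlapping groups.

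Uninjured Myd88KO tracheas were 0.76 higher than wild-type in Tff2 (95% CI 0.0117 to 1.51, adjusted p = 0.871). Tff1 and Tff2 are also made in the stomach lining. Of 4 stomach markers, Gkn1 and Gkn2 were well above background on 0 arrays. The tested pair, Gkn3 and Atp4b, had differences of 0.52 and 0.87 in the same comparison, and neither was called (adjusted p = 0.469 and 0.121). The summed log2 level of the 4 was -1.34 to -0.61 in uninjured wild-type, -0.55 to -0.017 in uninjured Myd88KO, -1.33 to -0.64 in injured wild-type and -1.18 to -0.77 in injured Myd88KO tracheas, and their part in the Tff2 values was not tested. After injury the Tff2 difference was -0.62 in wild-type and -0.68 in Myd88KO (adjusted p = 0.286 and 0.311). Injured Myd88KO replicate 5 had the highest Tff2 of its group, and the other 4 injured Myd88KO tracheas, at 7.43 to 7.98, were all below the uninjured ones. Without that array the Tff2 difference in Myd88KO was -0.86 (adjusted p = 0.138). As each array was left out, the Tff2 difference ranged from -0.85 to -0.31 for injury in wild-type, the latter without injured wild-type replicate 5, and from -0.86 to -0.55 in Myd88KO. Between injured genotypes it was 0.70 (adjusted p = 0.434) and ranged from 0.39 to 0.94. By scan day, the Tff2 difference between injured genotypes was 0.027 on the first day and 1.72 on the second. For injury in wild-type it was 0.033 and -1.60.

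Tff1 read 3.49 to 4.76 in uninjured wild-type, 4.06 to 5.88 in uninjured Myd88KO, 2.90 to 4.93 in injured wild-type and 3.48 to 5.65 in injured Myd88KO tracheas. Its Myd88KO minus wild-type difference was 0.74 in uninjured and 0.81 in injured tracheas (adjusted p = 1.00 and 0.444), and its injury differences were -0.23 and -0.16. Leaving out each array in turn, the Tff1 genotype difference ranged from 0.47 to 0.92 in uninjured and from 0.56 to 1.101 in injured tracheas. Its injury difference ranged from -0.51 to -0.0019 in wild-type and from -0.42 to 0.13 in Myd88KO. The spread within groups covered all of these. By scan day, the Tff1 genotype difference in uninjured tracheas was 0.29 on the first day and 1.43 on the second. In injured tracheas it was 0.18 and 1.77. Tff2 was among the 3 genes most like Tff1 over the arrays (r = 0.76), behind Klk1 (0.82) and Tesc (0.78). Those most like Tff2 were Lman1l (0.94), Galnt12 (0.91), which starts O-glycan chains, and Eif2ak3 (0.89), a sensor of unfolded protein in the endoplasmic reticulum.

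Muc5b is a gel-forming mucin that the airway makes in healthy tissue. It read 5.03 to 6.42 in uninjured wild-type, 5.87 to 6.41 in uninjured Myd88KO, 5.41 to 6.46 in injured wild-type and 4.68 to 6.58 in injured Myd88KO tracheas, so all 4 groups overlapped. The injury difference was 0.14 (95% CI -0.53 to 0.82) in wild-type and -0.16 (-0.84 to 0.51) in Myd88KO. The genotype difference was 0.42 (-0.25 to 1.09) in uninjured and 0.11 (-0.56 to 0.79) in injured tracheas. None was called, and these intervals reach no further from 0 than 1.09. As each array was left out, the Muc5b genotype difference ranged from 0.25 to 0.59 in uninjured tracheas and from -0.036 to 0.44 in injured ones, the latter without injured Myd88KO replicate 1. Its injury difference ranged from -0.031 to 0.32 in wild-type and from -0.31 to 0.16 in Myd88KO. The genes most like Muc5b were Smgc (r = 0.85), a secretory gene of salivary glands, Kcnn4 (0.82) and Cacnb3 (0.82).

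Muc5ac, the gel-forming mucin of surface goblet cells, had no probe under its name. A probe named LOC546020 is described in the file as similar to Mucin-5AC, and was picked out after its description was seen. It lies at positions 138237950 to 138238009 of chromosome 7 as the file gives them, on the same chromosome as the Muc5b probe. It was dim, at -4.72 to -3.04 over all 20 arrays, and its 4 differences ranged from -0.30 for injury in wild-type to 0.25 between the injured genotypes, with 0 called.

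Spdef, the transcription factor, read 1.03, 1.41, 0.62, 1.27 and 1.20 in uninjured wild-type and 1.40, 1.61, 2.20, 1.69 and 1.65 in uninjured Myd88KO tracheas. Only the highest wild-type value, 1.41, exceeded the lowest Myd88KO value, 1.40. The difference was 0.60 (95% CI 0.064 to 1.14, unadjusted p = 0.0302, adjusted p = 0.776 by limma), and Myd88KO was higher on 5 of 5 slides. In injured tracheas Spdef read 0.24 to 1.39 in wild-type and 0.54 to 1.93 in Myd88KO, with a difference of 0.49 (adjusted p = 0.456) that ranged from 0.33 to 0.69 as each array was left out. The injury differences were -0.24 in wild-type and -0.35 in Myd88KO (adjusted p = 0.602 and 0.483). With single arrays left out, the former ranged from -0.37 to -0.079, nearest 0 without injured wild-type replicate 5, and the latter from -0.49 to -0.15, nearest 0 without injured Myd88KO replicate 1.

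Agr2, a protein disulphide isomerase needed for mucin folding, was called in 0 comparisons. It read 6.33, 6.27, 5.18, 5.58 and 5.88 in uninjured wild-type and 6.55, 6.12, 6.48, 6.32 and 6.50 in uninjured Myd88KO tracheas. The difference was 0.55 (95% CI 0.13 to 0.96, unadjusted p = 0.0122, adjusted p = 0.528 by limma). The groups overlapped, and the 3 lowest wild-type tracheas were below every Myd88KO one.

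After injury Agr2 read 5.57 to 6.04 in wild-type, for a difference of -0.046 (95% CI -0.46 to 0.37). In injured Myd88KO tracheas it read 5.96, 6.05, 5.70, 5.80 and 6.46. The last of these is replicate 5, and the other 4 were all below the uninjured Myd88KO range of 6.12 to 6.55. With all arrays the difference in Myd88KO was -0.40 (adjusted p = 0.279), and without replicate 5 it was -0.51 (adjusted p = 0.101). It was not called either way. The Agr2 difference between injured genotypes was 0.20, and 0.081 to 0.27 as each array was left out. Its injury difference in wild-type ranged from -0.21 to 0.075.

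Spdef, Agr2 and the trefoil genes varied together over the arrays, with r of 0.86 between Spdef and Tff2, 0.69 between Agr2 and Tff2 and 0.60 between Spdef and Agr2. These correlations are across 20 arrays of 4 groups and share each array's scaling. Agr2 was most like AI646519 (0.91), Creb3l4 (0.91), an endoplasmic reticulum transcription factor, and a transcript known by an accession alone (0.87). Spdef was most like Slc12a8 (0.90), Slc17a9 (0.89) and Ncald (0.89).

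**Figure D3:**
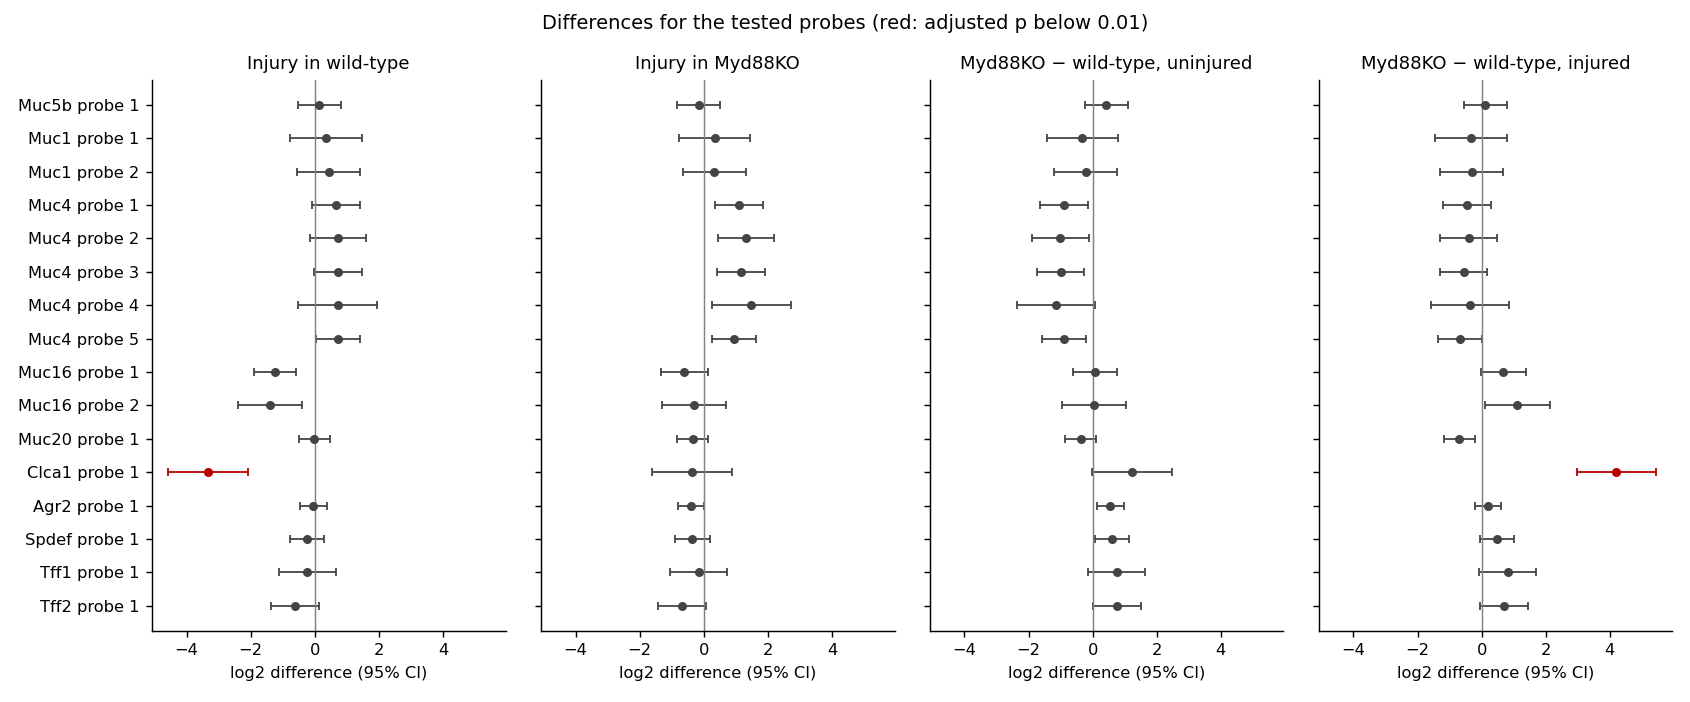
Log2 differences with 95% CI (horizontal axis) for the 16 tested probes in 4 comparisons, from limma with all 20 arrays; red marks an adjusted p below 0.01. Clca1 is marked in 2 panels, at -3.34 for injury in wild-type and 4.21 between the injured genotypes, and the Muc4 probes lie together in every panel.

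Muc4 is a large membrane mucin of the airway surface. Its 5 tested probes varied together over the arrays (r = 0.64 to 0.97 between probes) and share a transcript, so they are not independent. A sixth probe, found under an older name, was well above background on 0 of 20 arrays and was not tested. On the brightest probe, at positions 32456834 to 32456889 of chromosome 16 as the file gives them, Muc4 read 2.00, 1.32, 2.65, 2.14 and 2.80 in uninjured wild-type tracheas. It read 1.35, 0.75, 1.38, 1.23 and 1.67 in uninjured Myd88KO tracheas. Uninjured Myd88KO was lower on 5 of 5 slides, although the groups overlapped.

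After injury the same Muc4 probe read 2.74, 3.09, 3.25, 2.89 and 2.26 in wild-type tracheas. In injured Myd88KO tracheas it read 2.77, 2.25, 3.57, 2.27 and 1.05. The last value is replicate 5, which lay within the uninjured Myd88KO range of 0.75 to 1.67, while the other 4 lay above it.

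Over the 5 probes, the Muc4 difference of uninjured Myd88KO from uninjured wild-type tracheas was -1.13 to -0.89 (adjusted p = 0.494 to 0.939 by limma). After injury it was 0.94 to 1.49 higher in Myd88KO (adjusted p = 0.0753 to 0.166) and 0.66 to 0.73 higher in wild-type (adjusted p = 0.16 to 0.475). The difference between injured genotypes was -0.68 to -0.35 (adjusted p = 0.404 to 0.850). None was called with all arrays. Over the 5 probes and each array left out in turn, the Muc4 difference ranged from -1.45 to -0.54 between uninjured genotypes, from 0.39 to 1.08 for injury in wild-type and from 0.69 to 1.96 for injury in Myd88KO. The smallest differences in the first and second of these came without uninjured wild-type replicate 5 (probe 5) and uninjured wild-type replicate 1 (probe 4). Without injured Myd88KO replicate 5 the difference between injured genotypes was -0.13, -0.046, -0.24, 0.12 and -0.53 on probes 1 to 5 (adjusted p = 0.616 to 0.975), so its direction on probe 4 and most of its size on probes 1 to 3 rested on that array.

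Without injured Myd88KO replicate 5, probes 1, 2 and 3 of Muc4 were called for injury in Myd88KO, with differences of 1.44, 1.68 and 1.48 (adjusted p = 0.0064, 0.009 and 0.0051 by limma). Probes 4 and 5 were at 1.96 and 1.09 (adjusted p = 0.0247 and 0.0441). In that fit 1075 of all probes were called, in place of 98. With array weights, which gave replicates 1 and 5 of injured Myd88KO the lowest weights (0.31 each), probes 1 to 4 of Muc4 were called for injury in Myd88KO. In no other alternative was a Muc4 probe called. Replicates 1 and 5 of every group were scanned on the second day. By scan day, the injury difference on probe 1 was 1.57 and then 0.40 in Myd88KO, and 1.04 and then 0.10 in wild-type. In both genotypes it was larger on the first day on every tested Muc4 probe. The genes most like Muc4 over all 20 arrays were Piga (r = 0.88), Styk1 (0.87) and Clca3b (0.87).

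**Figure D4:**
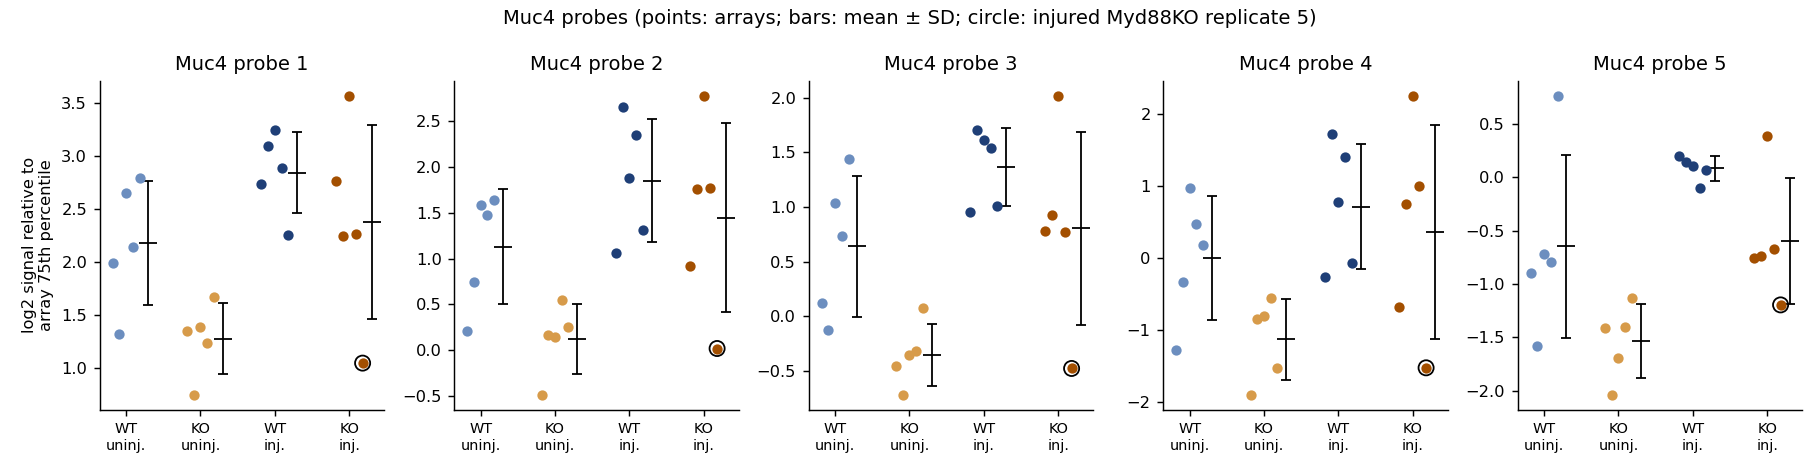
Log2 signal relative to the array's 75th percentile for the 5 tested Muc4 probes in uninjured (uninj.) and injured (inj.) wild-type (WT) and Myd88KO (KO) tracheas; points are arrays, bars are the mean and SD. The circled array, injured Myd88KO replicate 5, is the lowest of its group in every panel.

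Muc20, a small membrane mucin whose gene overlaps the end of Muc4 on the other strand, did not follow Muc4 closely (r = 0.29 between their brightest probes). It read 3.26, 2.91, 3.13, 3.08 and 3.85 in uninjured wild-type and 2.79, 2.43, 3.23, 2.50 and 3.44 in uninjured Myd88KO tracheas. After injury it read 3.21, 3.83, 2.80, 3.37 and 2.94 in wild-type and 2.26, 2.89, 2.59, 2.36 and 2.57 in Myd88KO. The injured groups overlapped only between 2.80 and 2.89.

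The Muc20 difference between the injured genotypes was -0.70 (95% CI -1.18 to -0.21, unadjusted p = 0.007, adjusted p = 0.206 by limma), and Myd88KO was lower on 5 of 5 slides. In uninjured tracheas it was -0.37 (adjusted p = 1.00). Injury gave a difference of -0.015 in wild-type and -0.34 in Myd88KO (adjusted p = 0.976 and 0.438). As each array was left out, the difference between injured genotypes ranged from -0.80 to -0.55, that between uninjured ones from -0.51 to -0.22, and that for injury from -0.17 to 0.13 in wild-type and from -0.46 to -0.20 in Myd88KO. The genes most like Muc20 were Fadd (r = 0.79), Irx4 (0.79) and Lpo (0.77).

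Muc16 is the largest of the membrane mucins. On its brighter probe, outlier spots were left out on uninjured Myd88KO replicate 4 and injured Myd88KO replicate 5. It read 5.36, 5.68, 4.41, 5.50 and 6.05 in uninjured wild-type and 4.52, 4.22, 4.90, 3.10 and 4.10 in injured wild-type tracheas. Injured tracheas were lower except that replicates 1 and 3 after injury exceeded the lowest uninjured value of 4.41. The difference was -1.23 (SE 0.31, 95% CI -1.89 to -0.57), and its adjusted p of 0.0152 by limma missed the threshold of 0.01.

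In Myd88KO tracheas the brighter Muc16 probe read 5.12 to 5.82 on 4 uninjured and 4.52 to 5.23 on 4 injured arrays, a difference of -0.62 (adjusted p = 0.348). Injured Myd88KO was 0.68 above injured wild-type (adjusted p = 0.411), and 0.41 to 0.86 as each array was left out. The dimmer probe was well above background on only 1 of 5 injured wild-type arrays, so its values there say little. Its difference was -1.39 for injury in wild-type and 1.11 between the injured genotypes, and went to -0.45 and 0.26 with normexp background correction, with none called. Leaving out uninjured wild-type replicate 3 or injured wild-type replicate 3 brought the brighter probe past the threshold for injury in wild-type (adjusted p = 0.004 and 0.0093), as did array weights (0.0072). The genes most like Muc16 over the 18 arrays with a value were an unnamed transcript (0.92), Dennd11 (0.91) and Etv1 (0.91).

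Muc1, a small membrane mucin found on most glandular epithelium, had 2 probes that matched closely over the arrays (r = 0.98). On the brighter one it read -0.49 to 0.15 in uninjured wild-type, -1.42 to 0.10 in uninjured Myd88KO, -1.21 to 1.38 in injured wild-type and -1.39 to 1.16 in injured Myd88KO tracheas. Its injury difference was 0.34 in each genotype (95% CI -0.77 to 1.46 in both), and the genotype difference was -0.32 in uninjured and -0.33 in injured tracheas. None was called on either probe. The injury difference on the brighter probe, with each array left out in turn, ranged from 0.040 to 0.69 in wild-type and from 0.010 to 0.65 in Myd88KO. The genotype difference ranged from -0.48 to -0.094 in uninjured and from -0.67 to -0.019 in injured tracheas.

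The wide spread of Muc1 went with the scan day. Replicates 1 and 5 were scanned on the second day. In the 3 groups other than uninjured wild-type those replicates read -1.42 to -1.01, and replicates 2 to 4 of the same groups read -0.09 to 1.38. In uninjured wild-type tracheas the days did not separate. Within the first day the Muc1 injury difference was 1.14 in wild-type and 0.49 in Myd88KO, and within the second it was -0.84 and 0.11. With scan day as a block no Muc1 difference was called (adjusted p = 0.345 to 0.998 over both probes and the 5 comparisons). The genes most like Muc1 were Trim37 (r = 0.93), Adcy3 (0.92) and Trp53i11 (0.92). What else differed between the scan days was not tested.

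**Figure D5:**
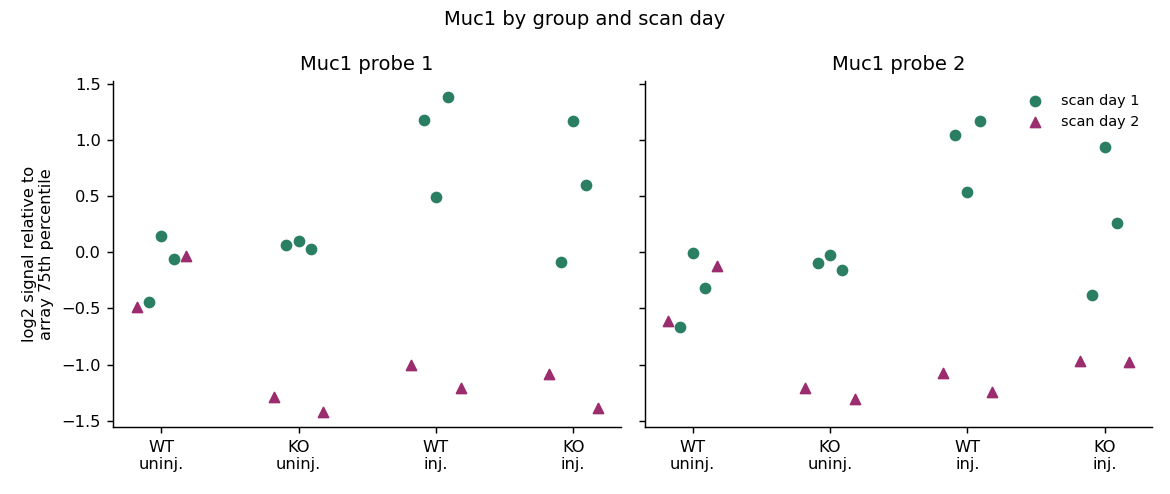
Muc1 log2 signal relative to the array's 75th percentile on both probes, by group, in uninjured (uninj.) and injured (inj.) wild-type (WT) and Myd88KO (KO) tracheas; circles are arrays of the first scan day and triangles those of the second. In every group but uninjured wild-type the triangles lie below the circles.

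Beyond the 10 genes, the wider mucus machinery was read from lists on the brightest tested probe of each gene. Of 14 other mucins 4 were tested (Muc6, Muc13, Muc15 and Emcn) and 0 were called in any comparison. Muc13, a membrane mucin better known from the gut, had the lowest adjusted p, at 0.0292 for injury in Myd88KO with a log2 difference of 3.49. Over the 4 genes, differences ranged from -1.51 to 2.43 for injury in wild-type and from -0.50 to 3.49 in Myd88KO. Between the genotypes they ranged from -2.57 to 0.47 in uninjured and from -1.51 to 0.52 in injured tracheas. Counts of these genes called for injury in wild-type stand beside 5.26% of all probes called, and medians beside 7.9e-05 over all probes. Of 27 enzymes of mucin glycosylation 21 were tested, and 1 (4.76%) was called: Galnt10, which starts O-glycans, rose by 0.70 after injury in wild-type (adjusted p = 0.0048). That share is near that of all probes.

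Of 24 genes of goblet cell and mucus secretion 17 were tested, and after injury in wild-type 3 (17.6%) were called, all lower. Bpifa1, an abundant antimicrobial protein of airway secretions, fell by 2.24, and it fell by 2.36 in Myd88KO too (adjusted p = 0.0029). Itln1, a secreted lectin, fell by 2.08 after injury in wild-type and was 2.43 lower in uninjured Myd88KO than in uninjured wild-type tracheas (adjusted p = 0.0052). The chloride channel Ano1 fell by 0.74 in wild-type (adjusted p = 0.0071). Between injured genotypes Ano1 was 0.72 higher in Myd88KO, which did not pass (adjusted p = 0.0569). The median of the 17 genes was -0.59 for injury in wild-type and -0.20 in Myd88KO, where it was -0.069 over all probes.

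Of 30 regulators of goblet cells 28 were tested and 2 (7.14%) were called, both after injury in wild-type, a share near that of all probes. Alox15, a lipoxygenase that interleukins 4 and 13 induce, fell by 3.21 (adjusted p = 0.000236), and Il4ra, a receptor subunit for those interleukins, rose by 1.38 (adjusted p = 0.0099). Alox15 was 2.05 higher in injured Myd88KO than in injured wild-type tracheas, which did not pass (adjusted p = 0.0236). Of 16 genes of granule exocytosis 15 were tested and 2 (13.3%) were called. After injury in wild-type Marcks rose by 0.85 and Sytl2 fell by 1.21 (adjusted p = 0.004 and 0.0077). In the other comparisons none of the regulators or exocytosis genes was called. The medians of the glycosylation, regulator and exocytosis lists for injury in wild-type were 0.0029, -0.11 and 0.12.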

How the data were processed

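Whole trachea RNA from 20 mice was measured on one-colour Agilent arrays. The authors deposited the intensity of each spot from Feature Extraction after subtraction of the background and of a spatial trend, with surrogate values for spots not above background and no scaling between arrays, per the file headers. The genome build was not given in the sources used here. 5 slides each held 1 array of every group.

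Control spots (1639 of 45018) and 1960 outlier values were left out, spots of 1 probe were averaged as log2, and each array's 75th percentile was subtracted. Probes well above background on at least 10 of 20 arrays were tested, which follows the study's rule of a signal present in 50% of samples. limma 3.58.1 in R 4.3.3 was fitted to all 20 arrays, with 5 contrasts and Benjamini-Hochberg adjustment within each at 0.01, the threshold of the study's one-way test. The fit was tested on simulated data.

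The text names every member, each called gene of the mucus and cell type marker lists that it describes and the 3 genes most like each member. Muc13, Dnaic1, Retnla, and the LOC546020 and Clca3a1 probes, were named after their values or descriptions were seen. Members and lists were chosen with earlier results of these data known. Names came from RefSeq by accession (22944 probes), symbol (6664) or older symbol (3108); 8458 kept the array's name. Alternatives were normexp, quantile normalization, 2 filters, the deposited value table, slide or scan day as a block, array weights, the groups compared alone, the methods' one-way test, and each array left out.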

Additional observations from a re-analysis of the deposited data

How the results depend on the processing

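Across 2516 recomputed values, 0 of the called values changed sign. As each array was left out, both Clca1 calls stood, at -3.80 to -2.95 for injury in wild-type and 3.82 to 4.67 between the injured genotypes. The number of member probes called for injury in wild-type, 1 with all arrays, was 0 by the methods' one-way test and 2 with array weights, and 1 to 2 as each array was left out. The number called for injury in Myd88KO, 0 with all arrays, was 4 with array weights and 0 to 3 as each array was left out, 3 without injured Myd88KO replicate 5. The number called between the injured genotypes, 1 with all arrays, was 0 by the methods' one-way test and 0 with only the groups compared. The cause was not tested. Over all probes, calls for injury in wild-type went from 1372 to 2630 with array weights and 2106 with scan day as a block, and for injury in Myd88KO from 98 to 2088, 361 and, with only the groups compared or by the methods' one-way test, 0. Without the filter on dim probes the latter count was 60. Between uninjured genotypes calls went from 100 to 179 with array weights and 46 by the methods' one-way test, and between injured genotypes from 99 to 38 with only the groups compared and 21 by the methods' one-way test.

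Every value that changed sign was uncalled and at most 0.40 in size as given in the report. With normexp these were Muc16 probe 2 between uninjured genotypes (-0.047) and the response difference of Muc1 probe 1 (0.00096). With quantile normalization they were Muc16 probes 1 and 2 between uninjured genotypes (-0.060 and -0.0012) and the response differences of Muc1 probe 1 (0.050) and Tff2 (0.16). With array weights they were Muc5b for injury in Myd88KO (0.10), Muc16 probes 1 and 2 between uninjured genotypes (-0.097 and -0.033), between injured genotypes Muc1 probes 1 and 2 (0.29 and 0.12) and Muc4 probes 2 and 4 (0.095 and 0.38), and the response differences of Muc1 probes 1 and 2 (0.43 and 0.16), Spdef (0.0071) and Tff1 (-0.11).

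As each array was left out, injury in wild-type ranged from -0.031 to 0.32 for Muc5b, -0.17 to 0.13 for Muc20 and -0.21 to 0.075 for Agr2. Injury in Myd88KO ranged from -0.31 to 0.16 for Muc5b, -0.57 to 0.031 for Muc16 probe 2 and -0.42 to 0.13 for Tff1. Between uninjured genotypes the range was -0.18 to 0.23 for Muc16 probe 1 and -0.21 to 0.32 for probe 2, and between injured genotypes -0.83 to 0.12 for Muc4 probe 4 and -0.036 to 0.44 for Muc5b. The response difference ranged from -0.35 to 0.30 and -0.43 to 0.18 for Muc1 probes 1 and 2, -0.14 to 0.44 for Muc4 probe 5, -0.48 to 0.018 for Muc5b, -0.27 to 0.087 for Spdef, -0.19 to 0.36 for Tff1 and -0.37 to 0.18 for Tff2.

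Arrays of 1 slide share a replicate number. Their deviations from the group means correlated at -0.26 to 0.48 (median 0.24, 23 of 30 pairs above 0.1). With slide as the replicate block, 84 of 85 results kept their direction and call, and Muc16 probe 1 between uninjured genotypes moved to -0.017. The number of arrays limits the precision, and the dimmer Muc16 probe was near background.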
